A study of Mus musculus with 20 samples.

Results

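The 10 genes described here are grouped under sodium and potassium handling in the principal cells of the collecting duct: *Scnn1a*, *Scnn1b*, *Scnn1g*, *Hsd11b2*, *Sgk1*, *Nedd4l*, *Klk1*, *Elf5*, *Fxyd4* and *Tfcp2l1*. Among them *Elf5* and *Tfcp2l1* are transcription factors, and *Klk1* is released by connecting tubule cells. Levels in whole kidney are not levels in principal cells alone. The 10 genes were chosen by name from what each is known to do, and the table of raw counts held all 10 of them among 24411 gene symbols. All 10 passed the filter on low counts in each comparison below.

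Principal cells take up sodium from the tubule fluid through ENaC, the epithelial sodium channel, and secrete potassium in exchange, under the control of aldosterone. Aldosterone acts through the mineralocorticoid receptor, *Hsd11b2* keeps cortisol-like hormones from occupying that receptor, *Sgk1* is a kinase induced by the hormone, and *Nedd4l* is the ubiquitin ligase that removes ENaC from the membrane. Principal cells and their neighbours in the connecting tubule are among the tubule cells from which cysts can form in polycystic kidney disease.

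Whole kidneys were taken at P125 (postnatal day) from 20 mice on a C57BL/6 background, 5 mutants and 5 controls of each sex. Mutants carried Pkd2fl/fl, Pax8rtTA and TetOCre, controls were Cre-negative littermates, and mice of every group received doxycycline at 50 mg per kg by intraperitoneal injection from P27 to P29, which switches on Cre and deletes *Pkd2* in the mutants. The Pax8 promoter drives rtTA in every tubule segment, so the deletion was not limited to principal cells, and each library held RNA of all cells of the kidney. In the names of the mice the first letter gives the sex and the second the genotype, so that MC4 is a male control and FM4 a female mutant, and the 3 litters are written A, B and C. Litters A, B and C held 2, 2 and 1 male mutants and 3, 1 and 1 male controls. They held 1, 3 and 1 female mutants and 1, 3 and 1 female controls. Several differences within a litter are thus between single mice.

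The libraries held between 11307741 and 19324073 counts. FM4 had the fewest counts, listed 14850 genes with at least 1 count where every other library listed at least 16776, and had 76 genes with exactly 1 count where the others had at least 708, so results that include it are also given without it where that matters. *Pkd2* stood at 291 ± 31.1 CPM (counts scaled to a common library size; mean ± SD, n = 5) in male controls and 119 ± 9.86 (n = 5) in male mutants, and at 257 ± 49.1 (n = 5) in female controls and 145 ± 33.6 (n = 5) in female mutants. Every mutant lay below every control of either sex. In edgeR's quasi-likelihood test the log2 fold change of *Pkd2* was -1.32 ± 0.08 (SE) in males (adjusted p = 2.18e-05). In females it was -0.80 ± 0.18 (adjusted p = 0.0276). At the threshold of 0.01 used below, the fit in females alone thus did not call *Pkd2* itself.

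Per kilobase of annotated exon, the genes covered a wide span of levels. In female controls *Klk1* was highest at 2380 ± 362 CPM per kb (SD, n = 5), followed by *Hsd11b2* at 115 ± 15.7, *Tfcp2l1* at 58.7 ± 7.95, *Scnn1a* at 40.9 ± 5.73 and *Fxyd4* at 36.3 ± 14.0. Below them came *Sgk1* at 29.0 ± 9.96, *Scnn1b* at 26.3 ± 2.39, *Scnn1g* at 22.7 ± 1.15, *Nedd4l* at 7.25 ± 0.567 and *Elf5* at 0.817 ± 0.379. From *Scnn1a* through *Fxyd4* and *Sgk1* to *Scnn1b* each gene overlapped with the next in this order over the 5 mice, whereas the other neighbours did not overlap, with *Scnn1b* from 24.0 to 30.1 and *Scnn1g* from 20.7 to 23.6. Male controls had the same leading genes, *Klk1* at 1680 ± 228 (n = 5), *Hsd11b2* at 69.9 ± 11.5 and *Tfcp2l1* at 44.9 ± 6.32. All exons of a gene entered its length, including those of transcripts that the kidney may not use, so levels per kb are approximate.

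In GRCm38 (mm10) with the GENCODE vM21 annotation, *Scnn1a* spans chr6:125320659-125344943, *Hsd11b2* chr8:105518755-105523988 and *Sgk1* chr10:21882184-21999903. *Scnn1g* at chr7:121734479-121768475 and *Scnn1b* at chr7:121865038-121918514 are neighbours on the plus strand. *Klk1* lies at chr7:44225360-44229618 among its paralogs, *Fxyd4* at chr6:117933559-117937692, *Elf5* at chr2:103411688-103450989 and *Tfcp2l1* at chr1:118627945-118685168. An exon of *Tfcp2l1* overlaps the small RNA gene *Gm23497* on the same strand and exons of *Nedd4l* overlap the antisense gene *A330084C13Rik*. Whether counting used strand is not given in the sources used here, so reads of these partners cannot be told apart.

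RefSeq start sites with a promoter sequence (GRCm38.p6) were matched for 7 of the 10 genes (not *Scnn1a*, *Hsd11b2* and *Nedd4l*), at 13 start sites, of which 6 belonged to *Sgk1*. The 250 bases before each start were searched on both strands for the hexamer AGAACA, which corticosteroid receptors bind, and for AGGAAG, the core of sites bound by ETS factors such as *Elf5*, and the 2 can overlap by the letters AG. AGAACA or its complement TGTTCT occurred at 3 of the 13 start sites, each of them of *Sgk1*, and in 16.1% of 32851 promoter windows of the same length. AGGAAG or its complement CTTCCT occurred at 7 of the 13, all of *Sgk1* except those of *Scnn1b* and *Klk1*, and in 29.5% of all windows, and the nearby starts of *Sgk1* are not independent. A single *Sgk1* window held both strands of the hexamer as a palindrome, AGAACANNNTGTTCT, a form searched for only after that window had been read, and 3 of the 32851 windows held it. Shown are this *Sgk1* window, because it holds the palindrome, the windows of the neighbours *Scnn1g* and *Scnn1b*, whose levels varied together, and that of *Klk1*, which had the largest change of the 10 between mutants and controls. Capitals mark both hexamers on either strand, and each sequence runs 5′ to 3′ toward the start site.
*Sgk1*, chr10:21993640-21993889, plus strand: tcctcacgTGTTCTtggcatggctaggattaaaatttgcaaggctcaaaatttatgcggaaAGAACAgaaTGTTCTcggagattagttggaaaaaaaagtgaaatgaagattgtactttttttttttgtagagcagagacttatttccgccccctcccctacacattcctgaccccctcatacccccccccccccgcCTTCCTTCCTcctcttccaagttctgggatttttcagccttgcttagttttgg
*Scnn1g*, chr7:121734229-121734478, plus strand: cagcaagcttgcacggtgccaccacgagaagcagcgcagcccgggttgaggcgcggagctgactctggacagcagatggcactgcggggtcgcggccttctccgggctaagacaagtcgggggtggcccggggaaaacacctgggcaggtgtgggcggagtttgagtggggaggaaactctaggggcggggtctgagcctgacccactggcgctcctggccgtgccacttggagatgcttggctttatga
*Scnn1b*, chr7:121864788-121865037, plus strand: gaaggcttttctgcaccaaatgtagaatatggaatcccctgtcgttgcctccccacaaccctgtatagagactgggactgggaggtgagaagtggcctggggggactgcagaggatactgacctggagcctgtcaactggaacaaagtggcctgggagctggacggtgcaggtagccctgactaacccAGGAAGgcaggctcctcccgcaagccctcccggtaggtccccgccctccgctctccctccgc
*Klk1*, chr7:44225110-44225359, plus strand: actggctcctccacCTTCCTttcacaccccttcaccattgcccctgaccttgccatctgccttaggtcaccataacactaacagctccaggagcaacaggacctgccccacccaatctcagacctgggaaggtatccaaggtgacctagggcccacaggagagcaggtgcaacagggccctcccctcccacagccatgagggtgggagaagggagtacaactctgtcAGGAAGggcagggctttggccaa
A match is a string of letters only, and none of these data measured binding. The *Scnn1g* window held neither hexamer, and those of *Scnn1b* and *Klk1* held AGGAAG or its complement but not AGAACA.

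The first question was how the 10 genes differed between mutants and controls. In mutants of both sexes the message of the ENaC subunits *Scnn1a* and *Scnn1g*, of the kallikrein *Klk1* and of the transcription factor *Tfcp2l1* fell by 27.8%, 18.7%, 46.7% and 22.2%. These 4 of the 10 fell in the comparison of all mutants with all controls (edgeR's quasi-likelihood test with Benjamini-Hochberg adjustment over all genes, called at an adjusted p under 0.01), a direction in which 5.86% of 14191 genes were called. In males alone 2 of the 10 fell, *Scnn1a* and *Klk1*, against 3.2% of 14010 genes called lower. In females alone none of the 10 was called where 0.637% of 14439 genes were called in either direction, although 5 of the 10 had an unadjusted p under 0.05, as had 20.6% of all genes tested, and DESeq2 called 2, *Scnn1a* and *Klk1*, among 928 genes. Without FM4, 5.93% of 14595 genes were called in females and *Klk1* was among them. The median log2 fold change of the 10 was -0.19 in the joint comparison, against -0.01 over all genes tested.

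**Figure D1:**
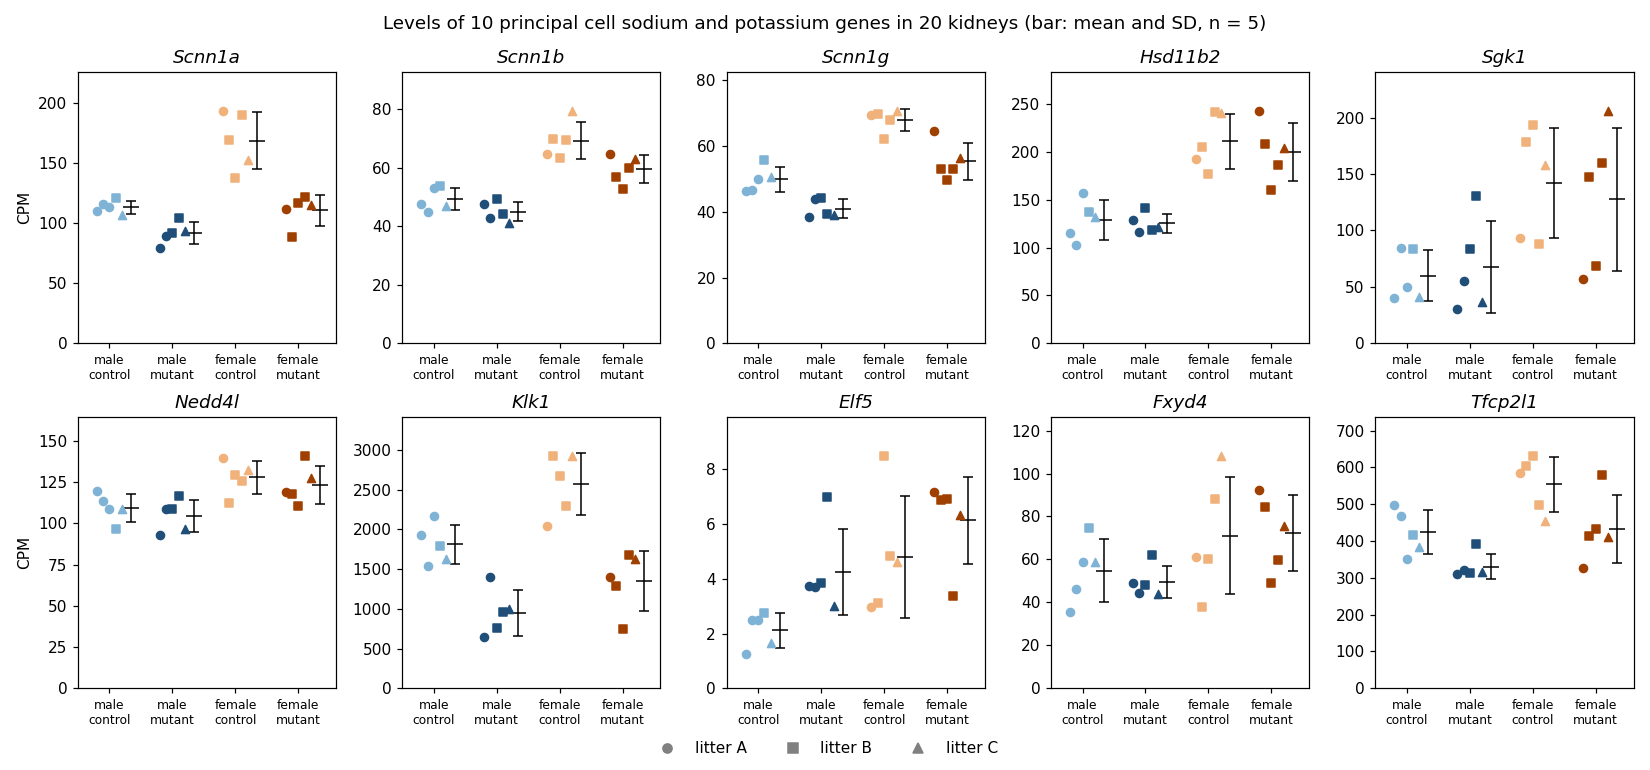
CPM (y axis, from 0) of each of the 10 genes in the 20 kidneys by group (x axis). Each point is 1 mouse, its shape gives the litter, and the bar beside the points gives the mean and SD of the 5 mice. *Scnn1a* and *Klk1* of every mutant lie below every control of the same sex, and 6 of the genes, among them *Hsd11b2* and *Scnn1b*, lie higher in every female control than in every male control.

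**Figure D2:**
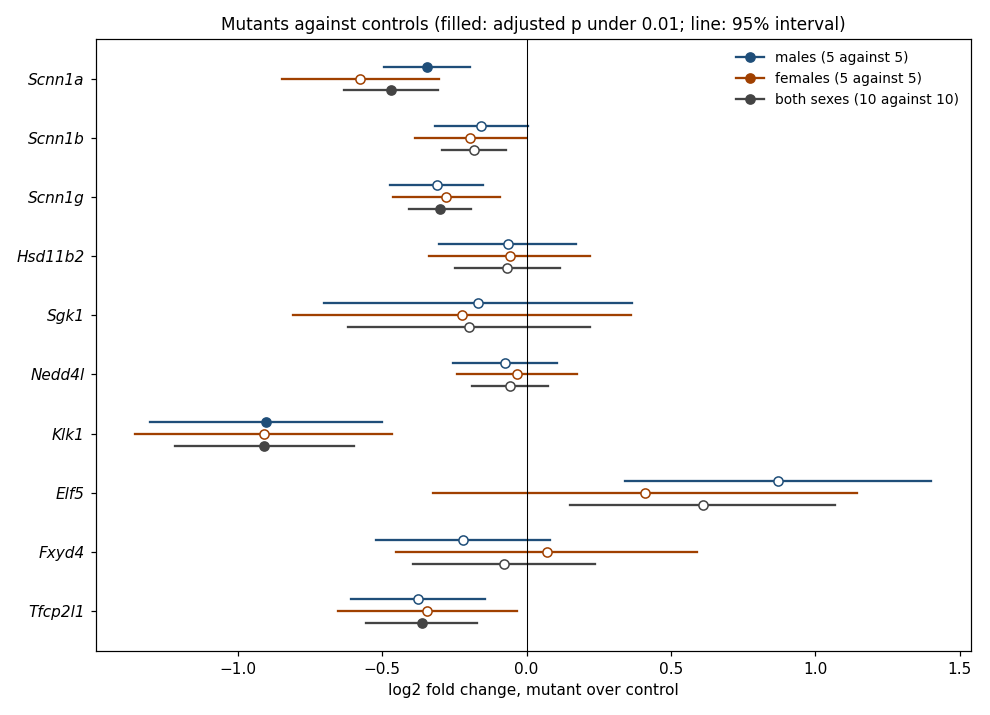
Log2 fold change of mutants over controls (x axis) for each gene (y axis) in males, in females and in both sexes. Points are edgeR estimates, filled where the adjusted p was under 0.01, and lines are 95% intervals. *Klk1* lies near -0.9 in all 3 comparisons, and *Elf5* has a positive estimate in each of them.

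*Scnn1a* encodes the alpha subunit of ENaC, which the channel needs to reach the membrane. In males its level was 111, 116, 114, 121 and 107 CPM in controls MC1 to MC5 and 79.3, 89.8, 92.2, 105 and 93.9 CPM in mutants MM1 to MM5. In females it was 193, 169.7, 138, 190 and 153 CPM in controls FC1 to FC5 and 112, 88.8, 117, 122 and 115 CPM in mutants FM1 to FM5. The groups did not overlap in either sex, and 4 of the 5 female mutants lay between 112 and 122 CPM, near the male controls. The log2 fold change was -0.34 ± 0.07 (SE) in males (adjusted p = 0.00556), -0.58 ± 0.12 in females (adjusted p = 0.0256) and -0.47 ± 0.08 in both together (adjusted p = 2.21e-04). Within each litter the mutants were lower in both sexes, by 0.43, 0.30 and 0.18 in males of litters A, B and C and by 0.79, 0.60 and 0.41 in females on the log2 CPM scale. The joint call held in each of the 20 fits that left out 1 mouse, whereas the male call was lost without any 1 of MC1, MC2, MC3, MC4, MM1 and MM3 (highest adjusted p = 0.0292, without MC4).

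*Scnn1g*, the gamma subunit, is cut by proteases when the channel is activated. In males its level was 46.5, 46.6, 50.0, 55.8 and 50.6 CPM in MC1 to MC5 and 38.5, 43.9, 44.2, 39.3 and 39.2 CPM in MM1 to MM5. In females it was 69.55, 69.7, 62.0, 67.9 and 70.5 CPM in FC1 to FC5 and 64.6, 53.1, 49.7, 52.9 and 56.2 CPM in FM1 to FM5. All male mutants lay below all male controls, while among females only FM1 reached into the range of the controls. The log2 fold change was -0.31 ± 0.07 (SE) in males (adjusted p = 0.013), -0.28 ± 0.08 in females (adjusted p = 0.0841) and -0.30 ± 0.05 jointly (adjusted p = 3.16e-04), and the joint call held without any 1 of the 20 mice.

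*Scnn1b*, the beta subunit, ranged from 45.0 to 53.8 CPM in male controls and from 41.0 to 49.3 CPM in male mutants. In females it ranged from 63.2 to 79.3 CPM in controls and from 52.8 to 64.8 CPM in mutants. The groups overlapped in both sexes. Its joint log2 fold change was -0.18 ± 0.05 (SE) and missed the threshold (adjusted p = 0.016), where DESeq2 gave an adjusted p of 0.00277. So in edgeR 2 of the 3 subunits passed, and the third had an estimate in the same direction.

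The 3 subunits can also be compared within a library, where scaling between libraries plays no part, and these ratios were added after the values had been seen. In female controls there were 2.45 ± 0.424 counts of *Scnn1a* per count of *Scnn1b* (SD, n = 5), and in female mutants 1.87 ± 0.257 (n = 5). In males the ratio was 2.31 ± 0.16 in controls and 2.06 ± 0.29 in mutants (n = 5 each). The ratio of *Scnn1b* to *Scnn1g* was 0.989 ± 0.0528 in male controls and 1.10 ± 0.0947 in male mutants. Of 6 comparisons, 3 ratios in each sex, the lowest exact permutation p was 0.0397 (two-sided, 252 splits, n = 5 each), for *Scnn1a* over *Scnn1b* in females and *Scnn1b* over *Scnn1g* in males, and it was 0.111 after adjustment over the 6. All 6 pairs of groups overlapped, and the permutations took no account of litter. Within litters A, B and C the log2 ratio of mutants minus controls was -0.79, -0.35 and -0.0764 for *Scnn1a* over *Scnn1b* in females, -0.68, -0.25 and -0.0784 for *Scnn1a* over *Scnn1g* in females and 0.11, 0.22 and 0.17 for *Scnn1b* over *Scnn1g* in males, of 1 sign in each of these. The other 3 comparisons had both signs among the litters. Litter C in each sex and litter A in females compare 1 mutant with 1 control, and both ratios given for females share *Scnn1a*. These signs come from the mice of the permutation tests and are no separate evidence.

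*Hsd11b2*, the enzyme that inactivates corticosterone and so reserves the mineralocorticoid receptor for aldosterone, had a small difference between genotypes. In males it stood at 115, 102.5, 157, 137 and 132 CPM in MC1 to MC5 and at 129, 116.5, 141, 118 and 121 CPM in MM1 to MM5. In females it stood at 192, 205, 176, 241 and 240.2 CPM in FC1 to FC5 and at 242, 208.5, 159.8, 186 and 204 CPM in FM1 to FM5. The male mutants all lay within the range of the male controls, and the female mutants spread from below to above the range of the female controls. The joint log2 fold change was -0.07 ± 0.09 (SE; 95% interval -0.25 to 0.11, adjusted p = 0.617), an interval that leaves out a change as large as that of *Scnn1a*.

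*Sgk1*, the kinase that aldosterone and glucocorticoids induce and that keeps *Nedd4l* from ENaC, had the largest coefficient of variation of the 10 genes in 3 of the 4 groups. In males it stood at 39.8, 84.9, 50.1, 83.7 and 41.0 CPM in MC1 to MC5 and at 30.8, 55.0, 83.45, 130.3 and 36.8 CPM in MM1 to MM5. In females it stood at 93.3, 178, 193.5, 87.7 and 158 CPM in FC1 to FC5 and at 56.9, 147.5, 68.8, 160 and 205.5 CPM in FM1 to FM5. It ran from 34.4% in female controls to 60.6% in male mutants, where that of *Scnn1g* was at most 10.2%. With this spread the joint log2 fold change of -0.20 had a 95% interval of -0.62 to 0.22 (adjusted p = 0.503), and in males its sign changed without MM1 or without the litter term.

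*Nedd4l* stayed between 92.8 and 119 CPM in all 10 males and between 110.4 and 141 CPM in all 10 females. Its joint log2 fold change was -0.06 ± 0.06 (SE; 95% interval -0.19 to 0.07, adjusted p = 0.546), so a change of the size seen for *Scnn1a* was outside the interval for the ligase as well.

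*Klk1* encodes tissue kallikrein, a protease that connecting tubule cells release into the urine and that can act on ENaC, and it had the highest level and the largest difference of the 10. In males it stood at 1925, 1544, 2164, 1791 and 1632 CPM in MC1 to MC5 and at 641, 1401, 762, 963.5 and 996 CPM in MM1 to MM5. In females it stood at 2044, 2921, 2667, 2289 and 2917 CPM in FC1 to FC5 and at 1403, 1289, 747, 1680 and 1627 CPM in FM1 to FM5. Every mutant lay below every control of its sex, and MM2 among males and FM4 among females came closest to the controls. *Scnn1a* and *Klk1* were thus 2 of the 10 with mutants below every control in both sexes, as were 1.37% of 14820 genes.

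The log2 fold change of *Klk1* was -0.90 ± 0.18 (SE) in males (adjusted p = 0.00653), -0.91 ± 0.20 in females (adjusted p = 0.0279) and -0.91 ± 0.15 jointly (adjusted p = 2e-04). Without FM4 it was -1.04 in females (adjusted p = 0.00838), and the joint call held without any 1 mouse. Within litters A, B and C the mutants were lower by 0.97, 1.06 and 0.71 in males and by 0.54, 1.15 and 0.84 in females. The male call was lost without any 1 of MC1, MC3, MC4, MC5, MM3, MM4 and MM5, with a highest adjusted p of 0.0492 without MC4. Of its 13 paralogs listed, 4 passed the filter, and *Klk1b5* fell (log2 fold change -1.07 ± 0.18, adjusted p = 2.38e-04), where 5.86% of 14191 genes were called lower. The summed level of the paralogs was at most 14.2 CPM in any mouse, although reads can be split between such similar genes by the counting.

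*Fxyd4*, also called CHIF, is a small partner of the sodium pump in the collecting duct. It ranged from 35.4 to 74.8 CPM in male controls, from 44.0 to 62.1 in male mutants, from 38.0 to 108 in female controls and from 49.0 to 92.4 in female mutants, and the groups overlapped in both sexes. Its joint log2 fold change was -0.08 ± 0.15 (SE; 95% interval -0.39 to 0.24, adjusted p = 0.752). Of 4 other FXYD genes tested, *Fxyd2*, the gamma subunit of the pump, fell (log2 fold change -0.48 ± 0.11) and *Fxyd5* rose (1.12 ± 0.18), while *Fxyd1* and *Fxyd6* were not called. In that comparison 15.9% of 14191 genes were called in either direction.

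The remaining members are transcription factors. *Tfcp2l1* is needed for collecting duct cells to take on their types. In males it stood at 498, 468, 352, 417 and 384 CPM in MC1 to MC5 and at 311, 322, 312, 391 and 317 CPM in MM1 to MM5. In females it stood at 584.5, 605, 631, 497 and 455 CPM in FC1 to FC5 and at 327, 414, 432, 580.5 and 412 CPM in FM1 to FM5. In each sex 4 of the 5 mutants lay below every control, and MM4 and FM4 lay within the controls. The joint log2 fold change was -0.36 ± 0.09 (SE; adjusted p = 0.00642), a call that held in 8 of the 20 fits without 1 mouse. It was lost without any 1 of MC1, MC2, MC4, MM1, MM2, MM3, MM5, FC1, FC2, FC3, FM1 and FM2 (highest adjusted p = 0.0183). Without FM4 its adjusted p was 0.00113, in a fit where 21% of 14274 genes were called.

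*Elf5*, an ETS factor of principal cells, was the member with the lowest level, between 17 and 144 counts a library, and the one of the 10 with a positive joint estimate. In males it stood at 1.24, 2.48, 2.48, 2.76 and 1.67 CPM in MC1 to MC5 and at 3.73, 3.69, 3.865, 7.00 and 2.99 CPM in MM1 to MM5. In females it stood at 2.97, 3.11, 8.49, 4.82 and 4.63 CPM in FC1 to FC5 and at 7.16, 6.89, 6.93, 3.36 and 6.34 CPM in FM1 to FM5. Male mutants lay above all male controls, whereas in females FC3 was the highest of the 10 and FM4 lay among the lower controls. The log2 fold change was 0.87 ± 0.24 (SE) in males (adjusted p = 0.027), 0.41 ± 0.33 in females (adjusted p = 0.558) and 0.61 ± 0.22 jointly (adjusted p = 0.0463), so *Elf5* was not called. It passed the threshold in 2 of the 20 joint fits without 1 mouse. These were the fits without FM4 (0.72 ± 0.20, adjusted p = 0.00907) and without FC3 (0.78, adjusted p = 0.00576). The highest adjusted p was 0.108, without MC4. Without FM4, 21% of 14274 genes were called in the joint comparison, against 15.9% of 14191 with all mice.

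Counted over the members, male mutants and male controls did not overlap for 4 of the 10, *Scnn1a*, *Scnn1g* and *Klk1* below and *Elf5* above, as for 15% of 14820 genes. In females they did not overlap for 2 of the 10, *Scnn1a* and *Klk1*, as for 6.98% of these genes. Of the 9 relatives of *Elf5* and *Tfcp2l1* tested, such as *Ehf* and the grainyhead genes, 1 was called in the joint comparison, the ETS factor *Elf3* (log2 fold change 0.93 ± 0.18). Over all genes 15.9% of 14191 were called there in either direction.

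Other genes listed for the pathway were called in both directions. Of 28 other sodium and potassium genes of the aldosterone-sensitive distal nephron that were tested, 7 fell and 4 rose in the joint comparison, where 15.9% of all genes were called in either direction, and the median log2 fold change of the 28 was -0.15. The genes that fell were the mineralocorticoid receptor *Nr3c2* (-0.48 ± 0.11), the potassium channels *Kcnj1* (ROMK, -0.69 ± 0.09) and *Kcnj10* (-0.68 ± 0.10), the regulators of the thiazide-sensitive cotransporter *Wnk1* (-0.55 ± 0.10), *Wnk4* (-0.66 ± 0.08) and *Klhl3* (-0.96 ± 0.22), and *Fxyd2*. The genes that rose were *Cnksr3*, a scaffold for *Sgk1* (0.41 ± 0.09), the protease *Tmprss4* (1.00 ± 0.19), the protease inhibitor *Serpine2* (0.66 ± 0.16) and endothelin, *Edn1* (1.04 ± 0.27). The pump subunit *Atp1b1* (-0.17 ± 0.09, adjusted p = 0.161) and the ENaC-activating protease *Prss8* (-0.20 ± 0.10, adjusted p = 0.135) did not pass.

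Of the 6 genes listed as induced by corticosteroids, *Edn1* rose and the other 5 were not called, with *Tsc22d3* (GILZ) at 0.27 ± 0.17 and *Fkbp5* at -0.11 ± 0.17. The median of the 6 was -0.01, and 15.9% of all genes were called in either direction. *Tsc22d3*, *Edn1* and *Fxyd2* each stood in 2 of the lists.

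The message of cell type markers was compared beside these changes. Of the 8 other principal cell markers, *Aqp3*, a water channel, fell (log2 fold change -0.38 ± 0.09) and *Stc1* rose (1.40 ± 0.13), while *Aqp2* (0.10 ± 0.14), *Aqp4*, *Avpr2*, *Gata2*, *Gata3* and *Npnt* were not called. The median of the 8 was 0.04, in the joint comparison, where 15.9% of 14191 genes were called in either direction. Their summed level ran from 471 to 761 CPM in male controls and from 558 to 729 in male mutants, and from 855 to 1130 in female controls and 1000 to 1105 in female mutants, so the groups overlapped. All 8 were detected, none at 0 in every mouse of a group.

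Most markers of the segments beside the principal cells were lower in mutants, in the joint comparison, where 5.86% of 14191 genes were called lower. Of the 8 markers of the distal convoluted and connecting tubule 7 fell, among them *Slc12a3* (-1.12 ± 0.14), *Calb1* (-1.14 ± 0.17), *Pvalb*, *Sall3*, *S100g* (-0.91 ± 0.17), *Slc8a1* and *Trpm6*, and the median was -1.01. Their sum ran from 2047 to 2665 CPM in male controls against 779 to 1700 in male mutants, and from 3079 to 3795 in female controls against 1129 to 1976 in female mutants. Of 11 intercalated cell markers 8 fell (*Atp6v0d2*, *Atp6v1b1*, *Atp6v1g3*, *Hepacam2*, *Insrr*, *Oxgr1*, *Slc26a4* and *Slc4a1*), with a median of -0.59 and sums of 534 to 619 against 260 to 459 CPM in males and 727 to 811 against 297 to 623 CPM in females.

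Of 7 markers of the thick ascending limb 5 fell (*Slc12a1*, *Umod*, *Cldn10*, *Irx1* and *Ppp1r1b*, median -0.42), and of 11 of the proximal tubule 1 fell (*Miox*, median -0.28). Over all genes 5.86% were called lower and 15.9% in either direction. Among genes of other cells, those that rose were 8 of 10 immune markers (*Adgre1*, *C1qa*, *Cd52*, *Cd68*, *Csf1r*, *Itgam*, *Lyz2* and *Ptprc*, median 1.44), 6 of 10 fibroblast and myofibroblast markers (*Acta2*, *Col1a1*, *Col1a2*, *Col3a1*, *Dcn* and *Tagln*, median 1.22) and all 5 proliferation markers (*Mki67*, *Top2a*, *Cdk1*, *Ccnb1* and *Birc5*, median 2.14). The immune sum was 124 to 155 CPM in male controls and 219 to 595 in male mutants, and 156 to 190.1 in female controls and 175.5 to 823.5 in female mutants, where the lowest was FM4. Of 6 urothelium markers 1 rose, *Krt20*, which was at most 1.42 CPM in any control and between 1.03 and 21.6 CPM in the mutants. *Klk1*, *Scnn1a*, *Scnn1g* and *Tfcp2l1* fell, as did most markers of intercalated cells, the thick ascending limb and the distal convoluted and connecting tubule. The median of the other principal cell markers was 0.04, and most immune, fibroblast and proliferation markers rose. The part of these lists in the fall of those genes was not tested. In bulk kidney fewer cells of a type and less RNA per cell cannot be told apart.

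**Figure D3:**
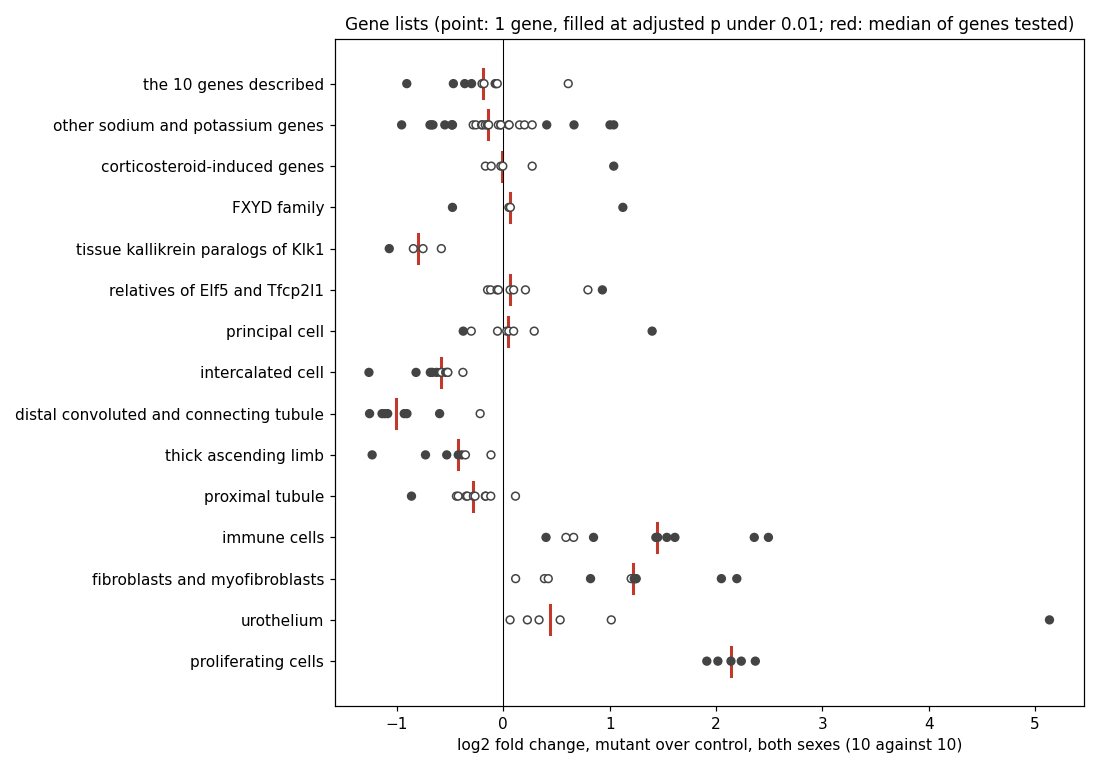
Log2 fold change of all mutants over all controls (x axis) for each gene tested in 15 lists (y axis). Points are single genes, filled where edgeR's adjusted p was under 0.01, and the red line is the median of the list. The 10 genes described have a median of -0.19, the other principal cell markers 0.04 and the distal convoluted and connecting tubule markers -1.01.

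The study also compared the sexes within each genotype. All 10 genes had lower estimates in males than in females, in controls and again in mutants, and the 2 comparisons share no mice. In controls 4 of the 10 were called, all higher in females, *Scnn1a* (1.46 times), *Scnn1b* (1.34 times), *Scnn1g* (1.30 times) and *Hsd11b2* (1.55 times), against 9.02% of 14123 genes called in that direction. The adjusted p were 0.00112, 0.00276, 0.00285 and 0.00293 in edgeR. *Sgk1* was 2.03 times higher in female controls, with a log2 difference (male minus female) of -1.02 ± 0.29 (SE) that missed the threshold (adjusted p = 0.0201). The median difference of the 10 was -0.43, against -0.01 over all genes.

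Female controls lay above every male control for 6 of the 10, *Scnn1a*, *Scnn1b*, *Scnn1g*, *Hsd11b2*, *Sgk1* and *Elf5*, as did 13.7% of 14820 genes. *Klk1*, *Nedd4l*, *Fxyd4* and *Tfcp2l1* overlapped between the sexes. Within litters A, B and C male controls were lower for *Hsd11b2* by 0.65, 0.58 and 0.87 and for *Scnn1a* by 0.77, 0.44 and 0.52 on the log2 CPM scale. All 4 calls were lost without FC1, the only female control of litter A (adjusted p between 0.015 and 0.0434), 1 of the 10 was called without MC5 or without FC5, the controls of litter C, and *Hsd11b2* was also lost without MC4.

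In mutants edgeR called 1 of the 10, *Hsd11b2*, 1.60 times higher in females (log2 difference, male minus female, -0.68 ± 0.11, adjusted p = 0.00319), against 1.84% of 14416 genes called higher in females. *Scnn1b* (1.32 times, adjusted p = 0.016) and *Scnn1g* (1.36 times, adjusted p = 0.0119) came next, both of them called with DESeq2 (adjusted p = 0.000888 and 0.000538), without the litter term and with all 20 mice in 1 fit, and *Scnn1a* was 1.18 times higher in female mutants (adjusted p = 0.188). Female mutants lay above every male mutant for 3 of the 10, *Scnn1b*, *Scnn1g* and *Hsd11b2*, as did 5.34% of 14820 genes. Without FM4 the call of *Hsd11b2* held (adjusted p = 0.00294), but it was lost without any 1 of FM1, FM5, MM4 and MM5 (highest adjusted p = 0.0335). For *Hsd11b2* the sexes therefore stood apart in both genotypes, while mutants and controls of 1 sex overlapped.

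Some of the principal cell markers were also higher in females. In controls 4 of the 8 were called (*Aqp4*, *Gata2*, *Gata3* and *Npnt*), each lower in males, with a median difference (male minus female) of -0.49 and with *Aqp3* at 0.02 and *Stc1* at 0.08. In mutants 1 of 8 was called (*Aqp4*) with a median of -0.69, where 1.84% of 14416 genes were called higher in females. Their summed level was 471 to 761 CPM in male against 855 to 1130 in female controls. Other tubule markers differed as well in controls, where 9.02% of 14123 genes were called lower in males. Lower in males were 5 of 7 thick ascending limb markers (median -0.46) and 3 of 11 intercalated cell markers (median -0.36). So were 2 of 8 markers of the distal convoluted and connecting tubule (median -0.48), whose sum was 2047 to 2665 CPM in male against 3079 to 3795 in female controls. Of 11 proximal tubule markers 1 was higher and 1 lower in males (median 0.02). The part of these markers in the difference of the 10 genes was not tested.

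**Figure D4:**
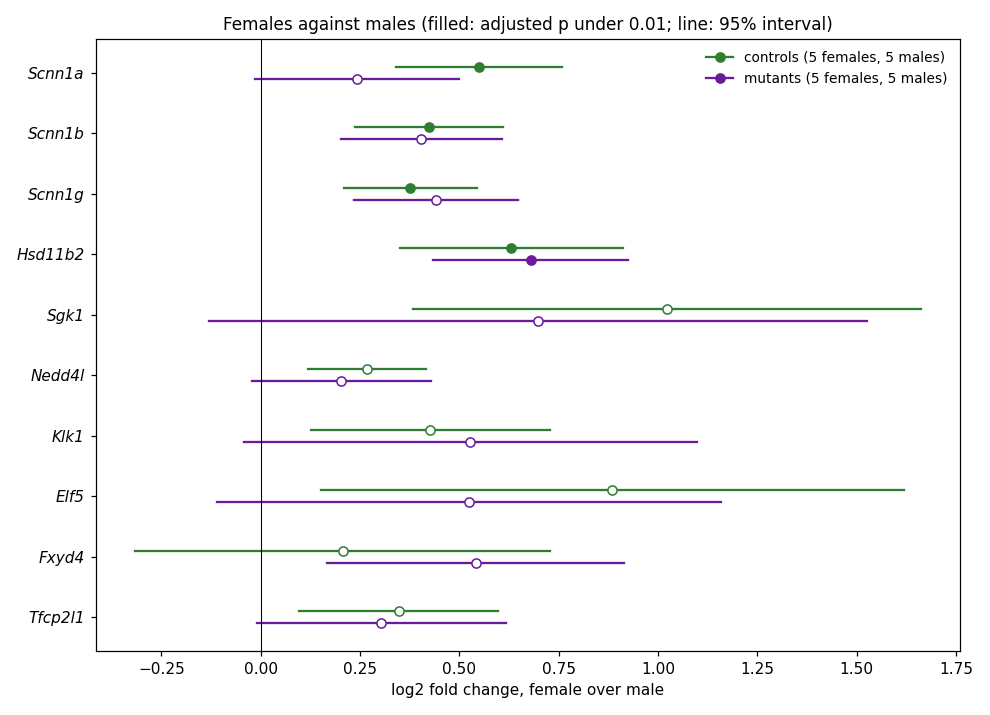
Log2 fold change of females over males (x axis) for each gene (y axis) in controls and in mutants. Points are edgeR estimates, filled at an adjusted p under 0.01, and lines are 95% intervals. All 20 estimates are above 0, and those of *Hsd11b2* are filled in both genotypes.

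Whether the difference between mutants and controls was of another size in males than in females was tested with the sex-by-genotype term. None of the 10 was called and none had an unadjusted p under 0.05, where 0% of 14820 genes were called by edgeR and 618 had an unadjusted p under 0.05. DESeq2 called none of the 10. The largest term among the ENaC subunits was that of *Scnn1a*, 0.26 ± 0.15 (SE; 95% interval -0.04 to 0.57), and that of *Klk1* was 0.03 ± 0.30 (-0.60 to 0.67). For *Sgk1* it was 0.08 ± 0.41 (-0.79 to 0.95), for *Elf5* 0.49 ± 0.44 (-0.42 to 1.41) and for *Fxyd4* -0.26 ± 0.30 (-0.90 to 0.38). A sex difference of the size of the joint change of *Scnn1a* lay inside the interval for *Klk1*, *Sgk1*, *Elf5*, *Fxyd4* and *Scnn1a* itself.

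The study related gene levels to the kidney to body weight ratio (KBW) in mutants, which ran from 0.836% to 1.46% in females and from 1.22% to 2.145% in males. In an edgeR fit with a term for sex over the 10 mutants, none of the 10 genes was called at an adjusted p under 0.01, where 0% of 14865 genes were. At an adjusted p under 0.05, 2.47% of them were called and *Klk1* was the 1 member, with a log2 change of -1.29 ± 0.25 (SE) per percentage point of KBW (adjusted p = 0.0334). Of the 10 members 3 had an unadjusted p under 0.05, *Klk1*, *Sgk1* and *Nedd4l*, a share near the 22% of all genes, and DESeq2 called *Klk1* at an adjusted p under 0.01 among 579 genes.

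For *Klk1* Pearson's r between log2 CPM and KBW was -0.899 over the 10 mutants (permutation p = 2.6e-04) and Spearman's rho was -0.879 (permutation p = 0.00159). Centred within each sex r was -0.867, and without MM1 and FM4, the mutants farthest from the median KBW of 1.42%, it was -0.822 (n = 8, exact permutation p = 0.015). MM1, with the highest KBW, had 641 CPM and FM4, with the lowest among mutants, 1680 CPM. The adjusted p of the fit rose to 0.205 without MM1 and to 0.119 without FM4, so the call at 0.05 rested on single mice while the slope stayed between -1.42 and -1.055 without any 1 mouse.

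*Nedd4l* had a relation of like closeness over a narrow span of levels. Its r was -0.888 (permutation p = 9.3e-04), rho was -0.770 (permutation p = 0.013), and r was -0.788 centred within sex and -0.707 without MM1 and FM4 (n = 8, exact permutation p = 0.0488). The slope was -0.38 ± 0.15 per percentage point (adjusted p = 0.166), against -1.29 for *Klk1*. For *Sgk1* r was -0.739 (permutation p = 0.0148) and rho -0.648 (permutation p = 0.0497), for *Tfcp2l1* r was -0.733 (permutation p = 0.0151) and rho -0.745 (permutation p = 0.017). Centred within each sex r was -0.601 for *Sgk1* and -0.513 for *Tfcp2l1* (permutation p = 0.0688 and 0.126). Without MM1 and FM4 the pooled r were -0.532 and -0.498 (n = 8, exact permutation p = 0.175 and 0.207), so both rested in part on those 2 mice.

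Among the ENaC subunits r was -0.681 for *Scnn1a* (permutation p = 0.0301), -0.566 for *Scnn1b* (permutation p = 0.088) and -0.664 for *Scnn1g* (permutation p = 0.0354), with rho of -0.515, -0.515 and -0.673 (permutation p = 0.132, 0.133 and 0.0378). Centred within sex they were -0.410, 0.127 and -0.178, and without MM1 and FM4 they were -0.272, -0.549 and -0.585 (n = 8). For *Hsd11b2*, *Elf5* and *Fxyd4* r was -0.542, -0.223 and -0.451 (permutation p = 0.106, 0.536 and 0.19), rho was -0.382, 0.0303 and -0.370 (permutation p = 0.278, 0.947 and 0.294), r centred within sex was 0.229, 0.246 and 0.0342, and r without MM1 and FM4 was -0.503, -0.454 and -0.525 (n = 8). For 4 of the 10 genes, *Scnn1b*, *Hsd11b2*, *Elf5* and *Fxyd4*, the sign of r thus differed between pooled and centred values. These are 10 relations with unadjusted permutation p, and the adjusted p of the fit covers all genes.

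**Figure D5:**
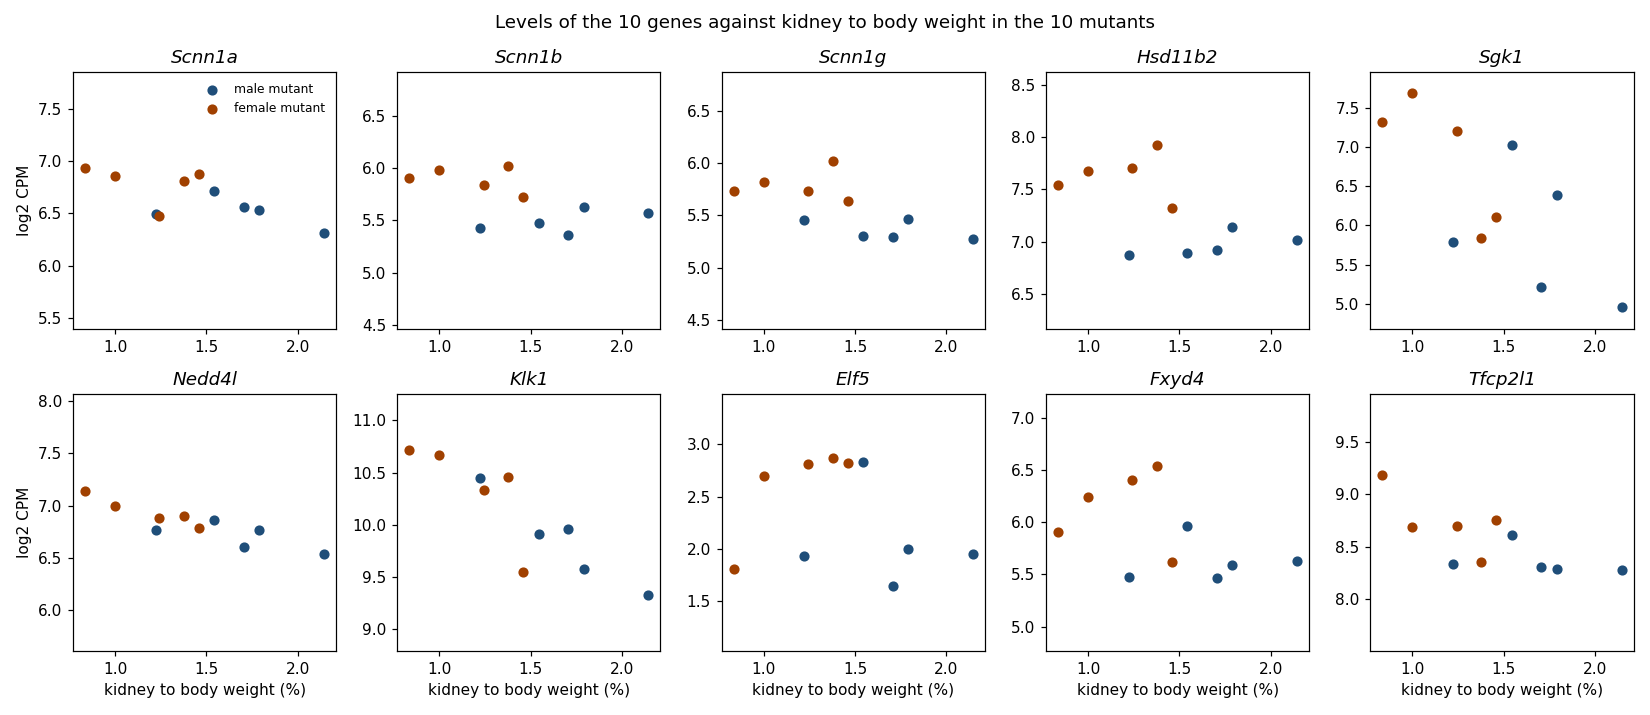
Log2 CPM (y axis) against KBW in percent (x axis) of the 10 mutants for each gene, with males and females in different colours. Each point is 1 mouse, and no line is fitted. *Klk1* is lower in mutants with a higher KBW (r = -0.899), and the *Hsd11b2* and *Scnn1b* points of the sexes do not overlap in level.

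Over all 20 mice the members differed in how closely they followed each other. *Scnn1b* correlated most with *Scnn1g* (r = 0.929) and *Hsd11b2* (r = 0.928) among the members, *Scnn1a* with *Scnn1g* (r = 0.840), and the lowest r was -0.178 between *Klk1* and *Elf5*. The genes most like each member in log2 CPM over the 20 mice, of 14820, were *S100g* (r = 0.974) and *Pgam2* (0.965) for *Klk1*, *Gldc* (0.916) and *Rab27a* (0.915) for *Scnn1a*, *Cln3* (0.967) and *Ap1m2* (0.960) for *Scnn1b*, and *Abhd6* (0.944) and *Ak1* (0.942) for *Scnn1g*. They were *Il17re* (0.954) and *Apela* (0.939) for *Hsd11b2*, *Rasgef1b* (0.940) and *1810011O10Rik* (0.925) for *Sgk1*, *Hs3st6* (0.866) and *Scrg1* (0.859) for *Nedd4l* and *Slit2* (0.945) and *Sptb* (0.938) for *Tfcp2l1*. For *Elf5* they were *Spon1* (0.891) and *4930523C07Rik* (0.890), and for *Fxyd4* *Map2k3os* (0.830) and *Aqp2* (0.826). Without FM4 these r lay between 0.83 and 0.979, and the points share the differences between sexes and genotypes, so each r is a description.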

How the data were processed

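RNA of whole kidneys was sequenced, 1 library per mouse, and the labels gave the sex, genotype, litter, body weight and kidney weight of each of the 20 mice. The deposited values are raw counts per gene symbol, without normalization. The submitters' processing notes name fastp 0.23.2 for trimming and STAR 2.7.10b for alignment, to mm10, while the counting tool, annotation and strand setting are not given in the sources used here. The library totals lay between 11307741 and 19324073 counts.

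The fits used edgeR 4.0.16 under R 4.3.3: TMM normalization, filterByExpr on each comparison, and the quasi-likelihood test with Benjamini-Hochberg adjustment over all genes tested, called at an adjusted p under 0.01. Covariates were litter within a sex or genotype, the 6 groups of sex and litter in fits over all mice, and sex in the fit on KBW. KBW was kidney weight as a percentage of body weight, the weight being taken as that of 1 kidney. CPM used TMM library sizes, and log2 CPM a prior count of 2. Standard errors of fold changes and slopes were derived from the test, as the absolute estimate divided by the square root of its F statistic. The 95% intervals use these errors and the t distribution at the degrees of freedom of the test. Single ratios were compared with exact two-sided permutation tests, and correlations over the 10 mutants with 100000 random pairings, or all pairings for 8 mice (scipy 1.17.1). Mice of a group were separate animals. Single reads are not independent molecules, and no unmatched column was used.

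Named are the 10 members, *Pkd2*, from each list the genes called in the joint comparison (if none, the 2 of highest mean CPM), and for each member the 2 genes with the highest r, and other genes named (those not called in a list) were chosen after their values were seen. The members, the lists (other sodium and potassium genes, corticosteroid-induced genes, FXYD genes, *Klk1* paralogs, relatives of *Elf5* and *Tfcp2l1*, and markers of 9 cell types or states) and the tests were chosen with earlier results of these data known. Promoter sequences are from RefSeq (GRCm38.p6) and lengths from GENCODE vM21. The alternatives were an adjusted p under 0.05, DESeq2 1.42.0 (size factors, Wald test), other filters and covariates, all 20 mice in 1 fit and each mouse left out. The procedure was tested on simulated data with the same dispersion for every gene, no litter effect and changes larger than most of those described here. That test does not show how well smaller changes are found. The values of 1 listed gene are not reported here.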

Additional observations from a re-analysis of the deposited data

Results flagged for a closer look

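Within the 40 groups of 5 mice (10 genes in 4 groups), 3 held a mouse whose gap to its nearest neighbour was large against the range of its group by Dixon's test, and chance gives about 1 in 20 groups. *Elf5* stood at 6.998 CPM in MM4, where the next male mutant had 3.865 CPM. *Elf5* stood at 3.363 CPM in FM4, where the next female mutant had 6.344 CPM. *Tfcp2l1* stood at 391.0 CPM in MM4, where the next male mutant had 322.3 CPM.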

How the results depend on the processing

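No paired analysis was possible because the labels give no replicate numbers, so that no mouse has a partner by number. Litter, which the labels do give, was a covariate in the comparisons within a sex or genotype and, with sex, in those over all mice. Counts over all genes stand in parentheses. Of the 10 genes, 2 were called in males (1185), but 5 at an adjusted p under 0.05 (2829), 4 with DESeq2 (2001), 1 with all 20 mice in 1 fit (857) and between 0 and 3 without 1 mouse. In females 0 were called (92), but 2 at 0.05 (791), 2 with DESeq2 (928), 2 with all 20 mice (810) and between 0 and 1 without 1 mouse. For the sexes in controls 4 (2510) became 8 at 0.05 (4211), 7 without the litter term (3088) and between 0 and 5 without 1 mouse, and in mutants 1 (782) became 3 at 0.05 (2099), 3 with DESeq2 (1959), 2 with at least 10 counts in every mouse (749), 3 without the litter term (921), 3 with all 20 mice (2355) and between 0 and 3 without 1 mouse. For KBW 0 (0) became 1 at 0.05 (367) and 1 with DESeq2 (579). The joint count of 4 (3 to 5 without 1 mouse) and that of 0 for the sex-by-genotype term stayed within 1.5 times of their values in each alternative run. Signs turned for 11 recomputed log2 fold changes, 15 slopes and 5 correlations, all of genes that had not passed the threshold in that comparison. Without 1 mouse the log2 fold change of *Hsd11b2* lay between -0.13 and 0.01615 in males and between -0.16 and 0.0147 in females, that of *Sgk1* in males between -0.37 and 0.0412, that of *Nedd4l* in females between -0.0955 and 0.0145 and that of *Fxyd4* in females between -0.0797 and 0.25. *Sgk1* was at 0.16 in males without the litter term and at 0.00625 jointly with sex alone as covariate. The KBW slope of *Scnn1a* was 0.0600 without the 2 mutants farthest from the median KBW, where *Scnn1b* had -0.0250, *Elf5* -0.01675 and *Fxyd4* -0.22. Without the sex term it was -0.34 for *Scnn1b*, -0.55 for *Hsd11b2*, -0.36 for *Elf5* and -0.48 for *Fxyd4*, with log2 KBW -0.00088 for *Scnn1b*, and with sex and litter -0.0156 for *Fxyd4*. Without 1 mutant the slope ran from -0.0453 to 0.15 for *Scnn1b*, from -0.18 to 0.0106 for *Scnn1g*, from -0.21 to 0.68 for *Elf5* and from -0.13 to 0.31 for *Fxyd4*. Centred within sex r was 0.127 for *Scnn1b*, 0.229 for *Hsd11b2*, 0.246 for *Elf5* and 0.0342 for *Fxyd4*, and Spearman's rho for *Elf5* was 0.0303. The cause of these differences was not tested. *Elf5* had the fewest counts of the 10 genes, 17 to 144 a library.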
